A study of Mus musculus with 4 samples.

Results

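The 10 genes described here mark endothelium, the cell layer lining blood vessels, in mouse molar development: Pecam1, Cdh5, Cldn5, Emcn, Eng, Kdr, Flt1, Tek, Tie1 and Sox18. They were chosen by name, as every probe whose gene name on the array was one of these symbols. All 10 were found, with 18 probes, among 17457 named genes with a measured probe. By the scanner's flags, a probe counted as measured if 1 or more Cy5 channels or 2 or more Cy3 channels were well above background, and 14 of the 18 met this. At least 1 probe of each gene was measured, so no gene was lost to the filter on dim probes, and 13 of the 14 stood above background in both channels on all 4 arrays. The other 4 probes (1 of Pecam1, 1 of Kdr and 2 of Flt1) were not well above background in either channel on any array.

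Vessels form when endothelial cells assemble into tubes and sprout under the control of vascular endothelial growth factor (VEGF), which binds the receptor kinases encoded by Kdr and Flt1. The angiopoietin receptor Tek, its relative Tie1 and the TGF-beta co-receptor Eng act in the maturation of those tubes, while Cdh5, Cldn5 and Pecam1 hold neighbouring cells together. In the tooth germ a capillary bed surrounds the enamel organ and enters the dental papilla as the molar passes from bud through cap to bell.

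The tissue was whole molar germ, taken from the mandible's first molar of C57BL/6 mouse embryos, and RNA was extracted with Trizol. There was 1 pool of germs per stage, and the number of germs in a pool was not given in the sources used here. On each of 4 arrays of 2 colours, the pool of E11, E12, E16 or E18 (Cy5) was hybridised with the same kind of pool from E14 (Cy3). E14 is therefore in all 4 comparisons and always in Cy3. No array with the dyes exchanged was analysed here, and a dye effect of a probe cannot be told apart from a difference from E14. The E11 and E12 arrays lay on slide 1 and the E16 and E18 arrays on slide 2, so that slide and the early or late side of the series cannot be told apart. No embryonic day other than E14 was hybridised more than once. A ratio for 1 stage consequently has no replicate and no test. In whole germs, fewer endothelial cells and less RNA per endothelial cell cannot be told apart.

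The regions that lie directly before the transcription starts of 4 of the genes are shown. No result of the arrays depends on these sequences. With loess normalization Kdr, Cldn5 and Eng had their highest level at E14, and Tek was lowest there on its brightest probe. For Tek the difference was small (0.03 at E12), its other probe lay below E14 at E11 and E12, and no direction can be given. With median centring in place of loess, the peak at E14 was kept by Eng but not by Kdr or Cldn5. Windows for 7 of the 10 genes were matched by symbol in the promoter table used here, drawn from RefSeq's GRCm38.p6. The Kdr window is chr5:75978456-75978705 on the minus strand, that of Cldn5 is chr16:18776597-18776846 on the plus strand, that of Eng is chr2:32646345-32646594 on the plus strand and that of Tek is chr4:94739039-94739288 on the plus strand. Each holds the 250 bases before the start, 5′ to 3′ along the gene. Capitals mark CCGGAA or CAGGAA on either strand, the cores bound by many ETS factors, a family that includes regulators of endothelial genes.

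Kdr: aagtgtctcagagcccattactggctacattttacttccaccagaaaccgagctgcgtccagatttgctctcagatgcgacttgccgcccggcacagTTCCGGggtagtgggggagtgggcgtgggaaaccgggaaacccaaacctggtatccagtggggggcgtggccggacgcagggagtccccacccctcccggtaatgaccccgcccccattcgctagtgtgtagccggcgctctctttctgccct
Cldn5: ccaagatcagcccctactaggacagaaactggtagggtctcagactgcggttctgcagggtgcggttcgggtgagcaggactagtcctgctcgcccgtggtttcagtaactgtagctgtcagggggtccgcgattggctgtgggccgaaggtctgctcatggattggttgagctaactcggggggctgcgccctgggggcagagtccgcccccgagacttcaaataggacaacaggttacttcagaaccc
Eng: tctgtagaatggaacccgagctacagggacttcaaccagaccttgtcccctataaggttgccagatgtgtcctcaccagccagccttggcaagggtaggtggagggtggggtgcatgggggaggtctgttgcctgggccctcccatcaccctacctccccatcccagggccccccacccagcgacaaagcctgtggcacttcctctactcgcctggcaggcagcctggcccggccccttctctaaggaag
Tek: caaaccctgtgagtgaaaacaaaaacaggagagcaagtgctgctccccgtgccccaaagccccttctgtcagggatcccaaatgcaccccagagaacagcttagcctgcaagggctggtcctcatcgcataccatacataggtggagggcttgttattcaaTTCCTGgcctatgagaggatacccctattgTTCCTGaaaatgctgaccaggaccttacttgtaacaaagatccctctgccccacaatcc

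The core CCGGAA was present in the Kdr window, on the strand opposite to the gene and first met 153 bases before the start, and in none of the other 6 windows matched. Over all 32851 windows of this length in the table, 12.0% held it. CAGGAA was present in 3 of the 7 windows (Tek, Tie1 and Emcn) and in 25.7% of all windows. The SOX core AACAAT was present in 2 of the 7 (Tek and Emcn) and in 9.42% of all windows, the copy in Tek overlapping an ETS core. The GATA core AGATAA was in 0 of the 7 and in 9.99% of all windows. Both strands were searched for every motif. These are matches of letters, and nothing in the arrays measures binding at them.

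Over the whole array, 26113 of 41174 probes were measured. The median raw signal per array was 39.8 to 44.0 in Cy3 and 51.5 to 71.7 in Cy5, over median local backgrounds of 15 to 17 and 31.0 to 33.5, and no spot was saturated. The E14 channel, hybridised 4 times, gave an SD of 0.051 log2 units for the median gene. For the brightest probes of the 10 endothelial genes that SD was 0.033 to 0.067 (n = 4 hybridisations of E14). The labels do not say whether these came from 1 extract, and this spread is not one between replicate pools of another stage.

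With loess normalization the endothelial genes as a group were modestly lower than E14 at each of the other stages, a direction that turned at E11, E12 and E16 with median centring. On the log2 ratio to E14, with a gene represented by its brightest probe, their median was -0.28 at E11, -0.35 at E12, then -0.53 at E16 and -0.42 at E18. The medians of all named genes lay between -0.02 and 0.01 on the same arrays. At E11, 8 of the 10 lay below E14, as did 52.1% of all genes, and at E12 it was 9 of 10 against 50.4%. At E16 it was 8 of 10 against 49.2%, and at E18 9 of 10 against 51.4%. The 4 comparisons share the E14 pool, so they are not independent of each other.

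**Figure D1:**
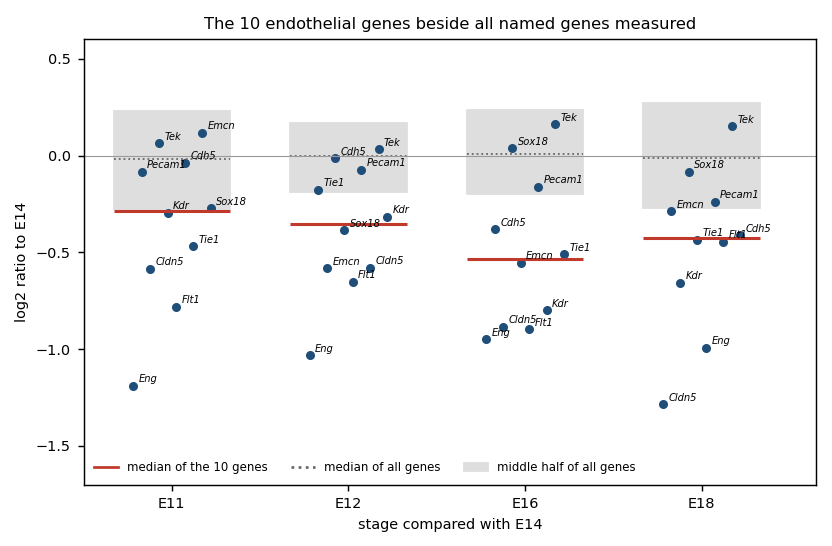
Log2 ratio to the E14 pool (vertical axis) of the brightest probe of each of the 10 endothelial genes (points) at E11, E12, E16 and E18 after loess, with their median (red line), the median of all 17457 named genes (dotted line) and the range from the lower to the upper quartile of those genes (grey box). The median of the 10 lies at -0.28, -0.35, -0.53 and -0.42, below the lower edge of the box at every stage.

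How far below E14 the group lay depended on how the colours were balanced within an array. With median centring in place of loess, which follows the dye ratio along signal strength, the median of all named genes moved to 0.40, 0.64, 0.57 and 0.17 at E11, E12, E16 and E18, and the endothelial median to 0.22, 0.45, 0.02 and -0.17. Relative to the median of all genes the endothelial median remained lower, by 0.18, 0.19, 0.55 and 0.34 log2 units, with 7, 8, 9 and 8 of the 10 genes below it. Without any background correction, with a smaller offset or with the scanner's own ratios, the counts of genes below E14 were 8, 9, 8 and 9 as in the loess values.

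Few of the differences reached 2-fold. At E11 1 of the 10 genes (Eng) was at least 2-fold below E14, beside 4.84% of all genes, and at E12 again 1 (Eng), beside 2.63%. At E16 there was none, beside 1.7%, and at E18 1 (Cldn5), beside 3.83%. At E16 the count was 1 (Eng) without background correction or with an offset of 10, and 3 (Eng, Cldn5 and Flt1) with the scanner's ratios, and at E18 it was 2 (Cldn5 and Eng) with each of these. With median centring it was 0 at every stage. With loess none of the 10 was at least 2-fold above E14 at any stage. The shares of all genes there were 1.59% at E11 and 0.332% at E12, then 2.01% at E16 and 3.82% at E18. With median centring 1 was (Emcn at E11), on an array where the median of all named genes was then 0.40. All shares in this paragraph belong to the main loess values. No share of all genes was counted under the other settings, so the 2-fold counts under those settings cannot be set against all genes.

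Among the genes of junctions and the cell surface, Cldn5, the tight junction claudin of endothelium, was the gene farthest from E14 at E18, with loess and with median centring. Its log2 ratio to E14 was -0.58 at E11 and -0.58 at E12, -0.88 at E16 and -1.29 at E18 (probe at chr16:18327686-18327745 in mm7, the build named in the scanner headers). E14 was thus the highest stage and E18 the lowest, with an E14 level 2.44-fold that of E18, and E11 and E12 differed by 0.0045, far less than the E14 channel's SD of 0.067. With median centring the values at E11 and E12 turned positive (0.24 and 0.46), those at E16 and E18 were -0.05 and -0.92, and E18 was still the lowest.

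Cdh5, which encodes VE-cadherin of the adherens junction, was measured by 2 probes. The brighter gave -0.04 at E11, -0.01 at E12, then -0.38 at E16 and -0.41 at E18, and the dimmer gave -0.02, -0.05, -0.06 and -0.17. On the brighter probe neighbouring values among E11, E12 and E14 were less than 2 SDs of the E14 channel apart (SD 0.040), and both late stages stood below all of them. Median centring made the early values positive (0.65 and 0.92) and that at E16 0.37, so that E11, E12 and E16 all came out above E14 and only E18, at -0.10, below it. On the brighter probe the lower level at E16 and E18 than at E11 and E12 was present under either balance. On the dimmer probe E12 and E16 differed by less than its E14 channel's SD of 0.0465. The early and late pairs lay on different slides, and with slide as a block the slope of the brighter probe was -0.0078.

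Pecam1, the adhesion molecule of endothelium, platelets and some leukocytes, is dim on this array: its measured probe had a mean raw signal of 68.4, close to the offset of 50 that was added to every signal and that pulls ratios of dim probes toward 0. The ratio was -0.08 at E11 and -0.07 at E12, -0.16 at E16 and -0.24 at E18. This probe was printed on 10 spots per array, with SDs over spots of 0.046 to 0.088. The 10 spots ranged from -0.16 to 0.0017 at E11 and from -0.30 to -0.07 at E18, so the stages overlap spot by spot. The scanner's own ratios, which carry no offset, gave -0.11, -0.11, -0.40 and -0.88. Median centring turned the values at E11, E12 and E16 to 0.07, 0.18 and 0.04.

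Emcn, encoding the sialomucin endomucin of capillary and venous endothelium, was the only gene with its highest value at E11. It was 0.12 at E11, -0.58 at E12, then -0.55 at E16 and -0.29 at E18. The gap of 0.12 between E11 and E14 lay within 2 SDs of the E14 channel, whose SD was 0.065, and E12 and E16 were likewise within that spread of each other. The difference between E11 and E12, 2 arrays of 1 slide, was 0.70 log2 units. Under median centring all 4 values were above E14 (1.09, 0.54, 0.35 and 0.18), and E11 was still the highest.

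Among the receptors, the pair that binds VEGF was lower than E14 at every other stage with loess. Kdr, the main signalling receptor, gave -0.30 at E11 and -0.32 at E12, -0.80 at E16 and -0.66 at E18 (probe at chr5:75351537-75351596 in mm7). E11 and E12 could not be told apart, and the late pair was lower. That pair lay on the other slide, so a slide difference cannot be told apart from one of stage. The Kdr probe was also printed on 10 spots. These ranged from -0.37 to -0.20 at E11 and from -0.40 to -0.19 at E12. At E16 they ranged from -0.89 to -0.71 and at E18 from -0.75 to -0.54. Every spot at E16 and E18 was thus below every spot at E11 and E12. The SDs over those spots were 0.054 to 0.064, beside a median of 0.057 over all 180 measured probes with 10 spots. Spots of 1 array share the RNA and the labelling, so they show the precision of the array and not that of the stage. Under median centring Kdr was above E14 at E11 (0.49) and E12 (0.70), level with it at E16 (0.0044) and below it at E18 (-0.29), with the late pair still lower than the early pair.

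**Figure D2:**
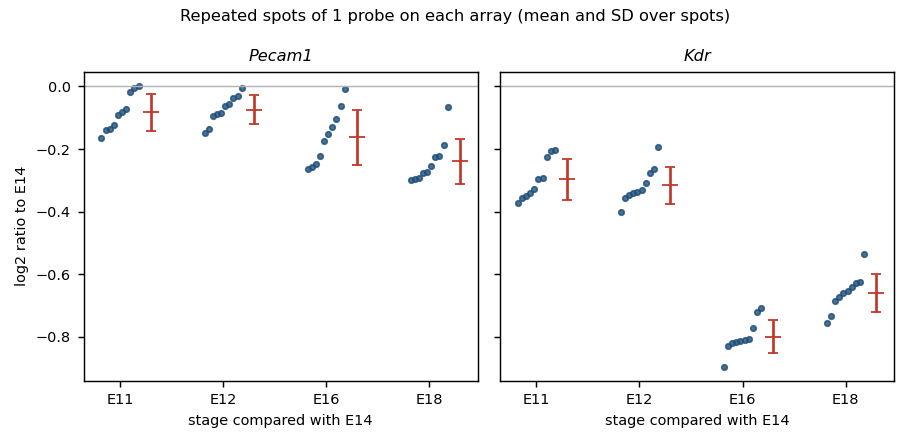
Log2 ratio to E14 (vertical axis) of the 10 spots of the Pecam1 probe (left) and the Kdr probe (right) on the arrays of E11, E12, E16 and E18; bars give the mean and SD over spots of 1 array. The Kdr spots at E16 and E18 (-0.89 to -0.54) lie below all those at E11 and E12 (-0.40 to -0.19), while the Pecam1 spots overlap between stages.

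Flt1 encodes VEGF receptor 1, which in its soluble form binds VEGF without signalling. Its brightest probe gave -0.78 at E11, -0.65 at E12, then -0.90 at E16 and -0.45 at E18. The other 2 measured probes gave -0.53, -0.34, -0.67 and -0.30, and -0.26, -0.18, -0.32 and -0.04. All 3 placed the 5 stages in the same order, with E14 highest, then E18, E12, E11 and E16. On the brightest probe each step of that order exceeded 2 SDs of the E14 channel, whose SD was 0.033. The smallest steps were 0.13 from E12 to E11 and 0.12 from E11 to E16. That SD leaves out the Cy5 channel, so it cannot show that these steps are resolved. Median centring kept E16 lowest on that probe (-0.03) but put E11 and E12 above E14, at 0.08 and 0.44.

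Eng, the co-receptor endoglin, had the largest difference from E14 of the 10 genes at E11, E12 and E16 with loess; with median centring the farthest were Emcn, Cdh5 and Sox18 there, all above E14. Its ratio was -1.19 at E11 and -1.03 at E12, -0.95 at E16 and -0.99 at E18 (probe at chr2:32689101-32689160 in mm7). The 4 other stages lay within 0.24 log2 units of each other and E14 stood alone above them, at 2.28-fold the level of E11 and 1.93-fold that of E16. E12, E16 and E18 followed each other by less than 2 SDs of the E14 channel (SD 0.060). Eng was also below E14 on all arrays under median centring, at -0.60, -0.20, -0.24 and -0.70. With E14 always in Cy3, a dye effect of this probe could also put every ratio below E14. Neither balance removes such an effect, and it was not tested.

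Tie1, an orphan receptor kinase that works with Tek, gave -0.47 at E11, -0.18 at E12, then -0.51 at E16 and -0.43 at E18. E12 was the nearest to E14 and stood apart from E18, the next in the order, by 0.26 log2 units (E14 channel SD 0.034). The steps from E18 to E11 and from E11 to E16 were within 2 SDs of that channel. Median centring put E12 above E14 (0.39) and left the other 3 below it (-0.12, -0.07 and -0.28).

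The 2 probes of Tek, the receptor of the angiopoietins, disagreed. The brighter gave 0.06 at E11, 0.03 at E12, then 0.16 at E16 and 0.15 at E18, whereas the dimmer gave -0.25 at E11 and -0.27 at E12. At E16 and E18 the dimmer probe was not well above background in Cy5, and E14 was at least 1.25-fold and at least 1.14-fold higher there. The brighter lies at chr4:94266776-94266835 and the dimmer at chr4:94134402-94134461 in mm7, and their mean raw signals of 63.0 and 48.4 were near the added offset. Median centring left the brighter probe above E14 (0.19, 0.17 and 0.34 at E11, E12 and E16) but at or below the median of all genes. No direction can be given for Tek from these arrays.

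Sox18, a transcription factor of endothelial and lymphatic differentiation, gave -0.27 at E11, -0.39 at E12, then 0.04 at E16 and -0.08 at E18. E16 and E14 could not be told apart (E14 channel SD 0.038), and both early stages were lower than both late ones. Kdr, Cldn5 and Cdh5, by contrast, were lower at both late stages than at both early ones. In each case the early and late pairs also lay on different slides. With median centring all 4 Sox18 values were above E14 (0.37, 0.48, 0.80 and 0.24), and E18 then lay below E11.

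**Figure D3:**
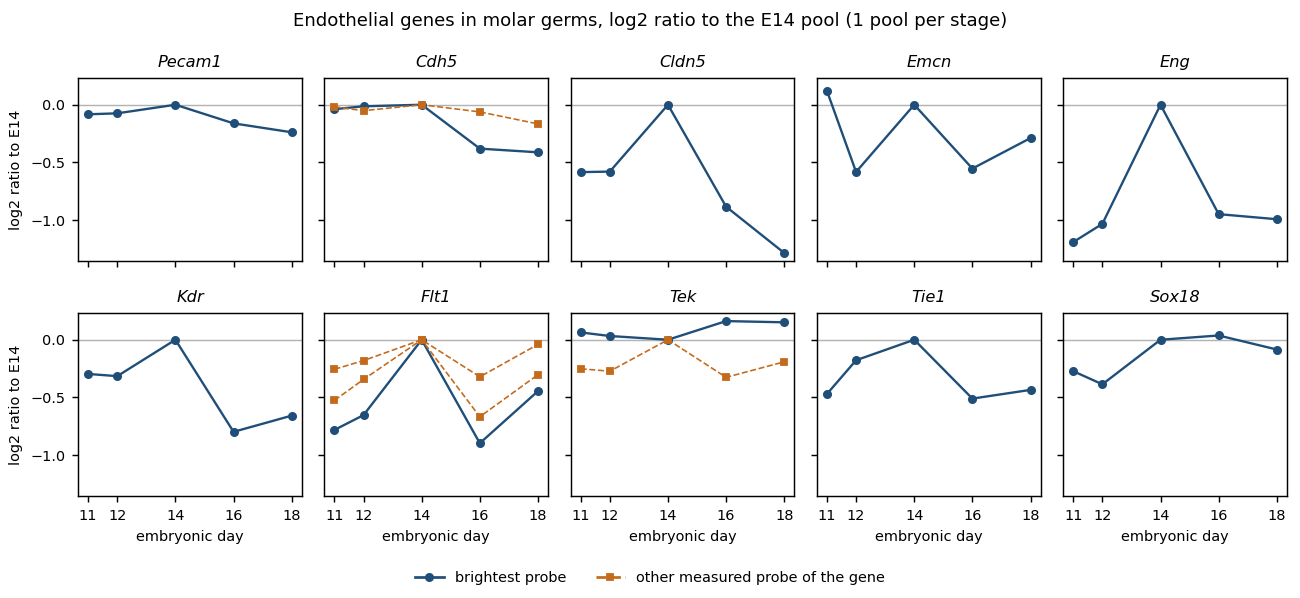
Log2 ratio to the E14 pool (vertical axis) against embryonic day (horizontal axis) for each of the 10 endothelial genes, with E14 at 0 by construction; circles and solid lines are the brightest probe, squares and dashed lines the other measured probes of the gene, and each point is 1 array after loess. Eng, Cldn5, Kdr, Flt1 and Tie1 peak at E14 on this scale (of these, only Eng does so with median centring), Emcn is highest at E11, and the 2 Tek probes lie on opposite sides of 0.

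With loess, E14 was the highest of the 5 stages for 7 of the 10 genes, E16 for 2 (Tek and Sox18) and E11 for Emcn. With median centring E14 was the highest for 1 gene (Eng), and the 6 others (Pecam1, Cdh5, Kdr, Tie1, Cldn5 and Flt1) were highest at E12. Of the 40 steps between neighbouring stages in the loess orders, 17 were within 2 SDs of the E14 channel, an SD that leaves out the Cy5 channel.

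Ratios between stages other than E14 are differences of 2 ratios to E14. The E14 level cancels in them, but the error of the E14 channel on both arrays stays. From E11 to E12 the median of the 10 genes differed by 0.01 log2 units, with the lowest value for Emcn (-0.70) and the highest for Tie1 (0.29). From E12 to E16, across the slides, the median difference was -0.17, with Kdr lowest (-0.48) and Sox18 highest (0.42). From E16 to E18 it was -0.02, Cldn5 being lowest (-0.40) and Flt1 highest (0.45). The medians of all named genes over these 3 steps were 0.0015, 0.0061 and -0.0078. Over the whole span, E18 against E11, 5 genes were lower and 5 higher, from -0.70 for Cldn5 to 0.34 for Flt1. Of all named genes, 51.6% were lower. None of the 10 was 2-fold apart between E18 and E11, beside 8.41% of all genes. These differences also moved with the balance of colours: with median centring all 10 genes were lower at E18 than at E11, from -1.16 for Cldn5 to -0.02 for Tek, and the medians of the 3 steps were 0.22, -0.33 and -0.29.

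A line over embryonic day was fitted with limma to the 4 ratios of each measured probe, the test chosen for a series with 1 pool per stage. It leaves 2 residual degrees of freedom, and it cannot see a peak at E14. None of the 10 endothelial genes passed an adjusted p of 0.05, beside 5.8% of all measured probes that rose and 2.59% that fell. By unadjusted p, 1 of the 10 was under 0.05, beside 6866 of the 26105 probes in the fit. The lowest adjusted p was that of Cldn5, 0.103, for a slope of -0.10 ± 0.03 log2 units per day (SE, 4 arrays). Cdh5 followed with -0.06 ± 0.03 (limma adjusted p = 0.227) and Kdr with -0.07 ± 0.03 (limma adjusted p = 0.233). Slopes were negative for 6 genes and positive for 4 (Tek, Eng, Flt1 and Sox18), with a median of -0.02 beside -0.002 for all genes. With slide as a block no gene of the 10 passed either, and the slopes of Kdr and Tie1 turned positive and those of Tek and Sox18 negative.

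The range of a gene's ratio over the 4 arrays was 0.13 log2 units for Tek, 0.71 for Cldn5 and 0.41 in the median, beside a median of 0.43 over all named genes. The arrays did record large shifts of other cell markers. Of 8 dental and oral epithelium markers, 7 rose, among them Sp6, with log2 ratios of -3.02, -2.86, 1.64 and 2.80 at E11, E12, E16 and E18, and Krt5, with -3.35, -2.16, 1.09 and 0.56. Of 10 dental mesenchyme markers, 6 fell and 1 (Msx2) rose, Prrx1 going from 0.01 at E11 to -3.92 at E18. With slide as a block 1 epithelium marker (Shh) rose, and not Sp6 or Krt5, and no mesenchyme marker passed. Without the E11 array 3 epithelium markers rose, and 3 mesenchyme markers fell and 1 rose. The summed signal of the epithelium list was -2.84, -1.60, 0.94 and 0.61 relative to E14 and that of the mesenchyme list -1.02, -0.76, -0.68 and -1.53, beside -0.33, -0.48, -0.62 and -0.52 for the 10 endothelial genes. The part of such shifts in the endothelial values was not tested.

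Other vessel genes were taken by list: signals, receptors, surface genes, transcription factors, lymphatic, mural and basement membrane genes. Of the 25 such genes past the trend threshold, 1 (Fabp4) still passed with slide as a block, 16 with median centring, and 7 without the E11 array, 7 without E12, 14 without E18 and 25 without E16. Of the 46 genes past the threshold over all lists, 2 passed with slide as a block, 36 with median centring, and 17 without E11, 25 without E12, 33 without E18 and 46 without E16. In the main fit 5.8% of all measured probes rose and 2.59% fell, 2189 in total. That total was 129 with slide as a block and 1577 with median centring. It was 448 without E11, 620 without E12, 2788 without E18 and 3252 without E16. These are totals under each setting, and how many of the 2189 were among them was not counted. The rises and falls described here therefore rest on arrays of both slides and on a fit in which the slides are not separated. Of 16 measured signals that act on vessels, 3 fell and 1 rose along embryonic day. Cxcl12, a chemokine for cells bearing CXCR4, went from 0.55 at E11 and 0.58 at E12 to -2.05 at E16 and -3.18 at E18 (slope -0.57 ± 0.04 per day, limma adjusted p = 0.00278). Pgf, a ligand of Flt1, fell as well, with -0.13, -0.004, -0.89 and -1.02 (adjusted p = 0.034), and so did Vegfc, a ligand of Flt4, with -0.10, 0.19, -0.55 and -1.13 (adjusted p = 0.0472). Sema3e, a guidance cue that repels sprouts through Plxnd1, rose, with -0.11, -0.18, 0.43 and 0.57 (adjusted p = 0.0292).

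The main ligand of Kdr and Flt1 did not pass. Vegfa gave -0.76 at E11 and -0.45 at E12, 0.20 at E16 and 0.07 at E18 (limma adjusted p = 0.0758). Vegfb gave -0.13, 0.22, -0.18 and -0.31, and Vegfd, listed under its older name Figf, gave -1.07, -1.78, -0.21 and -0.14 (adjusted p = 0.0718). Neither angiopoietin passed. Angpt1, the activating ligand of Tek, gave 0.09, -0.14, 0.34 and 0.45, and Angpt2, its context-dependent antagonist, gave -0.10, -0.26, 0.62 and 0.41.

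Of 16 other receptors of vessels, 2 rose and none fell. S1pr1, the sphingosine 1-phosphate receptor listed as Edg1, gave -0.64, -0.86, -0.06 and 0.70, and the netrin receptor Unc5b gave -1.06, -1.33, -0.09 and 0.34. The VEGF co-receptors Nrp1 (-0.47, -0.53, -0.56 and -0.63) and Nrp2 (-1.60, -1.03, -0.48 and -0.87) were below E14 at each stage and did not pass; with median centring this held for Nrp1, while Nrp2 was above E14 at E12 and E16 (0.28 and 0.57). The VEGF-C receptor Flt4 did not pass either, with -0.11 at E12 and -0.16 at E16. At E11 and E18 its Cy5 channel did not stand well above background, and E14 was at least 1.05-fold and at least 1.01-fold higher. Robo4, an endothelial guidance receptor, came closest among those with negative slopes (-0.50, -0.43, -0.96 and -1.25; limma adjusted p = 0.0611). The medians of this list were -0.50, -0.53, -0.42 and -0.55 at the 4 stages.

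Of 25 other endothelial surface and junction genes, 5 rose and 2 fell. Fabp4, a fatty acid binding protein of capillaries and fat cells, gave 1.41 at E16. At E11 and E12 its Cy5 channel did not stand well above background, and E14 was at least 1.14-fold and at least 1.21-fold higher. On the E18 array this held for the Cy3 channel, and E18 was at least 5.86-fold higher than E14. Gpihbp1, which carries lipoprotein lipase across capillaries, gave -0.74, -0.76, 0.36 and 1.31. Gja1, Aqp1 and Mcam rose too, all of them also made by cells other than endothelium. The arterial connexin genes fell: Gja4 gave 0.10, 0.22, -0.78 and -1.07 (limma adjusted p = 0.0193) and Gja5 gave 0.52, 0.50, -0.16 and -0.79 (adjusted p = 0.0179).

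Of 23 endothelial transcription factors, 1 rose and 3 fell. Hey2, a Notch target of arteries, rose, with -0.09 at E12 and 0.89 at E16. At E11 its Cy5 channel did not stand well above background, and E14 was at least 1.06-fold higher. On the E18 array this held for the Cy3 channel, and E18 was at least 2.19-fold higher than E14. Tal1, which also acts in blood formation, fell from 1.05 to -0.37, the shear-responsive Klf2 from -0.24 to -1.54 and the venous regulator Nr2f2 from 0.31 to -1.32. Fli1, an ETS factor of endothelial and blood cells, was far higher at E11 than at E14, with 2.61, 1.03, -0.12 and 0.17, and did not pass (limma adjusted p = 0.056).

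Of 13 red blood cell genes, 4 fell and none rose, namely the embryonic globin genes Hbb-bh1 (4.49 at E11 and -3.79 at E16), Hbb-y (1.50 at E11 and -7.11 at E18) and Hba-x (2.60 and -3.26), and the band 3 gene Slc4a1 (1.47 and -1.66). At E18 Hbb-bh1 was not well above background, and E14 was at least 15.6-fold higher. No red blood cell gene passed with slide as a block, and 2 passed without the E11 array. Of 13 pericyte and vessel muscle genes, 5 rose (Kcnj8, Mcam, Cspg4, Abcc9 and Cnn1) and 2 fell (Pdgfrb and Notch3), the slope of Cspg4 turning negative with slide as a block. Kcnj8 gave -4.29, -4.48, 0.80 and 0.98, and Pdgfrb gave -1.31, -0.72, -1.93 and -2.92. Of 10 leukocyte and platelet genes, which bear on Pecam1, 1 rose (Tyrobp) and 2 fell (the platelet genes Gp9 and Itga2b), and 4 more (Lyz2, Itgam, Spi1 and Pf4) were not measured. The summed signal of that list relative to E14 was -0.19, -0.37, 0.19 and 0.29, and its part in the Pecam1 values was not tested. Of 12 basement membrane genes, Itga1 rose and Itgb3 fell. None of 5 lymphatic genes passed, and 1 of them, Lyve1 (listed as Xlkd1), stood above background in Cy5 on 1 array and in Cy3 on none. Every gene of these lists that passed kept the sign of its slope in all 9 alternatives run for it, Cspg4 excepted. The size of the slope was not always kept. A slide block takes up any change between E12 and E16, so a slope that rests on that step shrinks by construction. With slide as a block the slope of Kcnj8 went from 0.89 to 0.03 and that of Mcam from 0.25 to 0.008. Cnn1 went from 0.09 to 0.003 and Pgf from -0.15 to -0.03. Other slopes grew, such as those of Fabp4 (0.41 to 0.45) and Nr2f2 (-0.22 to -0.45).

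**Figure D4:**
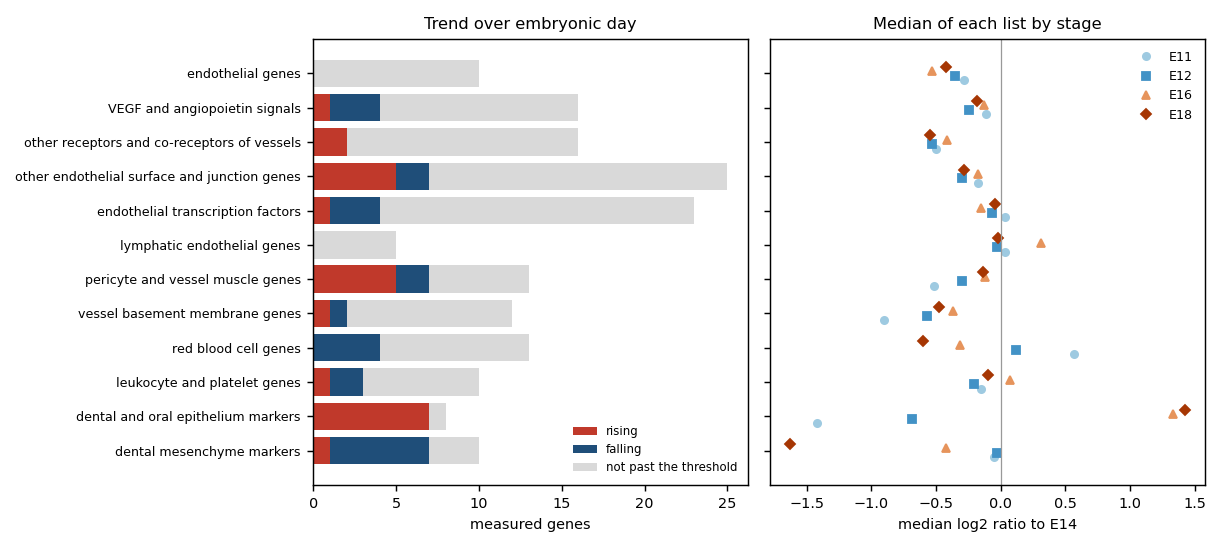
Left, number of measured genes of each list that rose (red), fell (blue) or did not pass (grey) the trend over embryonic day at an adjusted p of 0.05; right, median log2 ratio to E14 of each list at E11, E12, E16 and E18. The 10 endothelial genes have none that passed and medians of -0.28 to -0.53.

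The genes with the course most like the endothelial median were found from all named genes outside the 10. Measured by the root mean square difference over the 4 arrays, out of 13635 genes whose probe stood above background in both channels throughout, the nearest 6 were Mxd3, 1110033F14Rik, V1rb8, Cd3eap and 2 transcripts without a gene symbol, at 0.047 to 0.052 log2 units. Mxd3 gave -0.24, -0.36, -0.48 and -0.49. Among the 10 genes themselves, the distance from their own median ran from 0.13 for Tie1 and 0.18 for Kdr to 0.52 for Tek and 0.67 for Eng.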

How the data were processed

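Each array's scanner file, made with Agilent Feature Extraction 10.5.1.1 per the file headers, gives deposited intensities of both channels with local backgrounds and flags, and a deposited log10 ratio of Cy5 over Cy3. The series' value table matched that log10 ratio on all 4 arrays and was not used further. Here, mean intensities were background-corrected (normexp, offset 50) and loess-normalized within each array with limma 3.58.1 in R 4.3.3, without control spots in the loess curve. Spots flagged as outliers were left out and spots of a probe averaged. The E14 channel's SD was taken after Aquantile normalization. Slopes per embryonic day were fitted with lmFit and eBayes (intensity trend), with Benjamini-Hochberg adjustment over 26105 measured probes, and the fit was tested on simulated data.

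A gene is represented by its brightest measured probe, chosen by mean signal over the 4 arrays, and named genes are all 10 endothelial genes, the VEGF ligands, angiopoietins, Flt4, Nrp1 and Nrp2, the genes of each vessel or cell type list that passed where 6 or fewer, those with its 3 highest and 3 lowest slopes, and the 6 genes nearest the endothelial median. Values of such genes that the text leaves out are described by counts. The 10 genes and the lists were chosen with earlier results of these data known. With 1 pool per stage, p-values measure only the scatter of 4 arrays about a line. Array numbers and signal limit the precision. Probe positions are in mm7 per the file headers, and whether a probe lies in coding sequence was not analysed here. Promoter sequences came from RefSeq's GRCm38.p6 table. Alternatives covered background correction, normalization, probe choice, filter, slide, variance trend and each array left out. Values relative to the median of all genes, the alternatives for the list genes, and those for the highest stage, the 2-fold counts and the steps between stages were added after the data were seen.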

Additional observations from a re-analysis of the deposited data

How the results depend on the processing

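The member medians at E11, E12, E16 and E18 became -0.36, -0.40, -0.61 and -0.47 without background correction, -0.38, -0.41, -0.67 and -0.50 with an offset of 10, and 0.22, 0.45, 0.0228 and -0.17 with median centring. With the scanner's ratios they were -0.76 at E16 and -0.74 at E18, and with the mean of a gene's probes -0.29 at E18. Median centring left 2, 1 and 4 of the 10 genes below E14 at E11, E12 and E16, beside 27%, 21% and 21.1% of all named genes. The count of all probes past the trend threshold was 129 with slide as a block, beside 2189, and 448 (without E11), 620 (without E12) to 3252 when 1 array was left out, and none of the 10 genes passed in any of them. Slopes that turned, none of them past the threshold, were those of Kdr (0.0524), Tek (-0.0105), Tie1 (0.0886) and Sox18 (-0.0714) with slide as a block, and of Eng (-0.0202) and Flt1 (-0.0388) with median centring. With 1 array left out, the slope of Tie1 ran from -0.0486 to 0.0025, that of Emcn from -0.094 to 0.043 and that of Flt1 from -0.0339 to 0.0435. For the turned values the cause was not tested. The filter on dim probes, or its absence, moved no median of the 10 genes. It could not do so, because the brightest probe of each stood above background in both channels on all arrays. No paired analysis was possible because each stage has 1 array. Among the 10 genes, signal over background limits Pecam1 and Tek most, whose ratios are pulled toward 0 by the offset.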
